A study of Homo sapiens with 6 samples.

Results

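The genes described here are 10 secreted factors and co-receptors of blood vessel and stromal signalling: the VEGF ligands VEGFA, VEGFB, VEGFC and PGF, the PDGF ligands PDGFA, PDGFB, PDGFC and PDGFD, and the neuropilins NRP1 and NRP2. They were chosen by name, and all 10 were found among the 28395 Entrez gene IDs of the count table. RNA-seq compared MDA-MB-468-PR, a paclitaxel-resistant derivative, with its parent MDA-MB-468, a human line established from breast cancer of the triple-negative kind. The derivative had been kept in 3 to 4.5 nM paclitaxel, a microtubule-stabilising drug, for 2 months. There were 3 resistant libraries and 3 control libraries of the parental line, and the labels describe the cells of both as untreated when harvested. All resistant libraries come from this single derivative, so drug exposure and anything else that happened while this derivative was made cannot be told apart. The labels date resistant replicate 1 and control replicate 1 to a 2020 batch and the other 4 libraries to a 2021 batch.

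VEGF ligands are dimeric secreted proteins that act through the receptor tyrosine kinases FLT1, KDR and FLT4, chiefly on blood and lymphatic endothelium. PDGF ligands are built on a related cystine-knot fold and act through PDGFRA and PDGFRB on fibroblasts and pericytes. Neuropilins are co-receptors that bind both VEGF ligands and class 3 semaphorins, which are secreted guidance factors that signal through plexins. In carcinomas, tumour cells commonly make the ligands and surrounding stromal cells carry most of the receptors.

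Total counts ran from 37889818 to 93680129 in resistant libraries and from 41343499 to 66475627 in control libraries. Levels are CPM, read counts relative to library size, scaled by TMM, a method that corrects for library composition. The lines were compared by the quasi-likelihood test of edgeR, in a model that also held the batch, and a gene was called when its p-value, adjusted by the Benjamini-Hochberg method over 13950 tested genes, was under 0.05. By this rule 11.5% of tested genes were called, 6.17% higher and 5.33% lower in resistant cells. The cultures carried the epithelial marker EPCAM at 367 to 653 CPM in resistant and 429 to 663 CPM in control libraries, and PGR, the progesterone receptor gene, had no count in any library. ERBB2, at 93.5 to 117 CPM in resistant and 106 to 138 CPM in control libraries, and ESR1 were not called. Over 8 endothelial markers the summed level was 6.96 to 9.49 CPM in resistant and 4.87 to 6.99 CPM in control libraries, and the endothelial genes TIE1 and CLDN5 had at most 1 count in a library. Others of these 8 were detected: 5 were tested, and 4 of them, PECAM1, CDH5, VWF and TEK, were not called. VWF had 1.02 to 1.7 CPM in resistant and 1.64 to 1.84 CPM in control libraries. ESAM, an adhesion gene, was called higher (edgeR adjusted p = 0.0323), and its call ended under the replicate block (0.0642). Of 8 epithelial and line identity markers, EGFR rose (adjusted p = 0.0205, and 0.0605 under the block) and KRT14 fell (adjusted p = 0.00138). The groups of EGFR overlapped. The EGFR call also ended with any library left out except control replicate 2 (0.0588 to 0.0843), in the 2021 batch alone (0.115) and without the batch term (0.292). That of KRT14 ended only without the batch term (0.117). The 9 fibroblast and pericyte markers summed to 25.7 to 30.2 CPM in resistant and 25.4 to 31.6 CPM in control libraries, with LUM at 0 in every library and nearly all of the sum from COL1A1, a collagen gene. The 8 leukocyte markers summed to 11.9 to 19.8 CPM in resistant and 11.9 to 21.5 CPM in control libraries, with MS4A1 at 0 in every library and CD14 as the most abundant gene on average. No gene of these 2 lists was called (4 and 3 tested). The part of such markers in the results was not tested. All levels are relative to the library total, so fewer cells that express a gene and less RNA per cell cannot be told apart.

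Of the 10 genes, 8 passed the filter on low counts and were tested, and VEGFC and PDGFD did not pass it. PDGFA and PDGFC rose in resistant cells and VEGFA fell. The differences of VEGFB, PGF, PDGFB, NRP1 and NRP2 did not pass the threshold. Every resistant library was above every control library for PDGFC and PGF, against 10.7% of all tested genes separated in this direction. No member had all resistant libraries below all control libraries, a pattern found in 10.2% of tested genes.

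**Figure D1:**
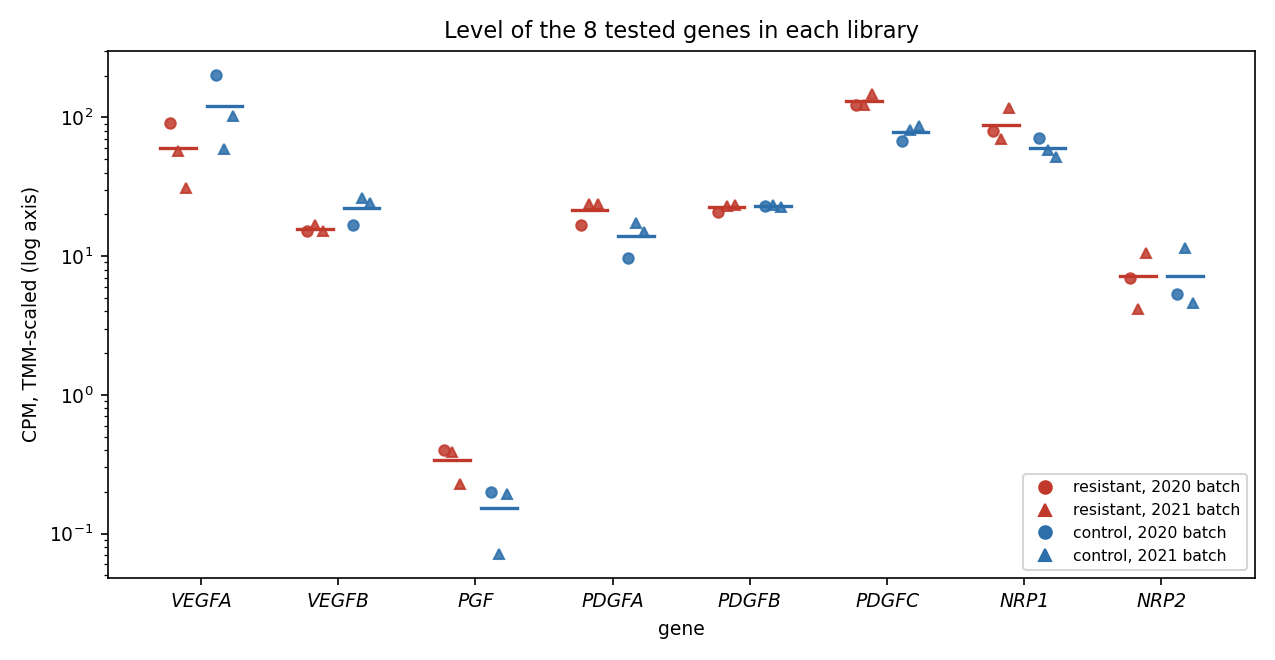
Level of each tested gene in CPM on a log axis, with the resistant libraries in red to the left of the control libraries in blue. Circles are the 2020 batch, triangles the 2021 batch and horizontal lines the group means; PDGFC and PGF are the genes whose groups do not overlap, and VEGFA has the widest spread between control libraries among the abundant genes.

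VEGFA, the main inducer of vessel growth and permeability, lies on chromosome 6 from 43770211 to 43786487 (Entrez gene 7422, GRCh38.p14). It had 91.5, 56.9 and 30.8 CPM in resistant replicates 1 to 3 and 203, 59.6 and 102 CPM in control replicates 1 to 3. The groups overlapped, because resistant replicate 1 was above control replicate 2, but within each batch every resistant library was below every control library. VEGFA averaged 59.7 ± 30.4 CPM in resistant cells and 121 ± 73.6 CPM in control cells (SD, n = 3 each). The fitted difference was a 1.96-fold fall (log2 fold change -0.97 ± 0.26 SE, edgeR adjusted p = 0.0481). The log2 difference was -1.15 in 2020, from 1 library a line, and -0.89 in 2021. The call was marginal. It ended without resistant replicate 1 or 3 or control replicate 1 or 3 (adjusted p = 0.0539 to 0.155), with the replicate number as a block (0.093) and with a robust estimate of the spread (0.0965). It also ended without the batch term (0.402), in the 2021 batch alone (0.153), with upper quartile scaling (0.0698) and with a minimum mean of 1 CPM (0.0689).

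VEGFB, a ligand of FLT1 and NRP1 with a role in heart muscle and lipid handling, lies on chromosome 11 from 64234584 to 64239264. It had 15.2, 16.9 and 15.2 CPM in resistant replicates 1 to 3, against 16.8, 26.3 and 24.1 CPM in control replicates 1 to 3. Resistant replicate 2 was level with control replicate 1, and the other resistant libraries were below all controls. The difference did not pass the threshold (log2 fold change -0.49 ± 0.13 SE, edgeR adjusted p = 0.0557). It was -0.14 in 2020 and -0.65 in 2021. It passed in 7 of 16 alternative analyses, among them DESeq2 (adjusted p = 0.0155) and limma voom (0.041).

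PGF, placental growth factor, a ligand of FLT1, was close to the detection limit. It had 15, 26 and 22 counts in resistant replicates 1 to 3 and 8, 4 and 13 counts in control replicates 1 to 3. These correspond to 0.404, 0.39 and 0.228 CPM in resistant and 0.199, 0.0715 and 0.192 CPM in control libraries, so the groups were separate. The test did not call it (log2 fold change 1.11 ± 0.46 SE, edgeR adjusted p = 0.166). VEGFC, the lymphatic growth factor, had 0 counts in all 6 libraries. A count of 0 is compatible with up to 3 counts, so its level could reach 0.0311 to 0.0808 CPM in resistant and 0.0443 to 0.0745 CPM in control libraries. These limits cover counting error only. Per kilobase of the longest coding transcript, the share of VEGFA among the 4 VEGF ligands was 69.7%, 56.4% and 44% in resistant replicates 1 to 3 and 82.4%, 46.9% and 62.2% in control replicates 1 to 3. VEGFB made up nearly all of the rest. Per kilobase of coding sequence the share of VEGFA was higher, at 51.5% to 75.7% in resistant and 54.5% to 86.4% in control libraries. Per kilobase of all exons joined, VEGFA was instead below VEGFB in every resistant library, at 6.34, 3.94 and 2.14 against 9.85, 10.9 and 9.81 CPM in replicates 1 to 3. In control replicates 1 to 3 VEGFA then had 14.05, 4.13 and 7.06 and VEGFB 10.87, 17.01 and 15.56. The order of these 2 ligands thus depends on the length used.

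PDGFC, which is secreted with a CUB domain that must be cut off before it binds PDGFRA, was the most abundant PDGF ligand. It lies on chromosome 4 from 156760454 to 156971799 (Entrez gene 56034). It had 123, 123 and 147 CPM in resistant replicates 1 to 3 and 67.4, 81.3 and 86.8 CPM in control replicates 1 to 3. Every resistant library was above every control library. PDGFC averaged 131 ± 13.7 CPM in resistant and 78.5 ± 9.98 CPM in control cells (SD, n = 3 each), a 1.68-fold rise (log2 fold change 0.74 ± 0.11 SE, edgeR adjusted p = 0.00521). By batch, the log2 difference was 0.86 in 2020 and 0.68 in 2021. PDGFC stayed called in each of the 16 alternative analyses, with adjusted p of 3.25e-08 to 0.0461.

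PDGFA, the classical ligand of PDGFRA, lies on chromosome 7 from 497258 to 520700 (Entrez gene 5154). It had 16.6, 23.6 and 23.8 CPM in resistant replicates 1 to 3 and 9.69, 17.3 and 14.9 CPM in control replicates 1 to 3. Resistant replicate 1, of the 2020 batch, lay just below control replicate 2, of the 2021 batch, and within each batch the resistant libraries were higher. PDGFA averaged 21.4 ± 4.08 CPM in resistant and 14 ± 3.91 CPM in control cells (SD, n = 3 each), a 1.54-fold rise (log2 fold change 0.63 ± 0.11 SE, edgeR adjusted p = 0.0118). The call ended without resistant replicate 1 or 3 or control replicate 1 (adjusted p = 0.0631 to 0.0813), in the 2021 batch alone (0.0761) and without the batch term (0.288). A divergent non-coding gene that overlaps the start of PDGFA, PDGFA-DT, had at most 6 counts in a library.

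PDGFB, the ligand that recruits pericytes through PDGFRB, stayed within a narrow range. It had 20.9, 22.8 and 23.5 CPM in resistant replicates 1 to 3 and 22.9, 23.5 and 22.8 CPM in control replicates 1 to 3. The fitted log2 fold change was -0.04, with a 95% interval of -0.26 to 0.18 (edgeR adjusted p = 0.827), which corresponds to 0.832 to 1.14 times the control level. PDGFD, also a ligand of PDGFRB, had 1 count in each resistant library and 0 in each control library, and no fold is given at this depth. Per kilobase, PDGFC made up 69.1%, 63.8% and 67.4% of the 4 PDGF ligands in resistant replicates 1 to 3 and 60.1%, 57.8% and 61.6% in control replicates 1 to 3. The share of PDGFC was thus higher in each resistant library than in any control library. The CPM of PDGFC was 1.34, 2.17 and 4.76 times that of VEGFA in resistant replicates 1 to 3, against 0.333, 1.36 and 0.853 times in control replicates 1 to 3. This ratio was higher in resistant cells within each batch, while resistant replicate 1 and control replicate 2 were nearly equal.

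**Figure D2:**
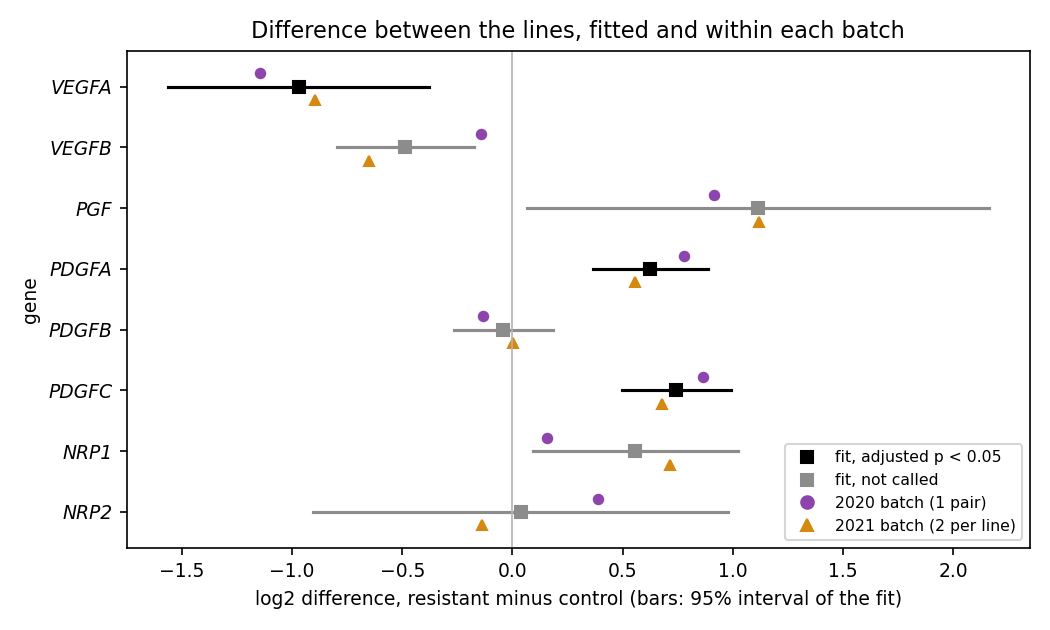
Log2 difference of resistant minus control for the 8 tested genes. Squares with bars are the fitted values with 95% intervals, black where called; purple circles are the single pair of 2020 and orange triangles the 2021 batch. VEGFA lies lowest at -0.97, PDGFA and PDGFC lie at 0.63 and 0.74, and the interval of PDGFB is the narrowest.

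Promoter windows of 250 bases before an annotated start were read for the members that the RefSeq table of GRCh38.p14 lists, to show the sequence in front of a ligand gene that rose, one that was lower without passing and one without counts. The table held 10 windows for 6 members: 4 for PDGFA, 2 for PGF and 1 each for VEGFB, VEGFC, PDGFD and NRP2. VEGFA, PDGFB, PDGFC and NRP1 had no window there, so the counts below do not cover them. The 2 windows of PGF overlap each other. In the lines that follow, all 5′ to 3′, capitals mark GC boxes, the letters GGGCGG or their reverse complement CCGCCC, known as binding sites of SP1 family factors. The windows are chr7:520701-520950 on the minus strand for the outermost start of PDGFA, chr11:64234334-64234583 on the plus strand for VEGFB and chr4:176792923-176793172 on the minus strand for VEGFC.
PDGFA: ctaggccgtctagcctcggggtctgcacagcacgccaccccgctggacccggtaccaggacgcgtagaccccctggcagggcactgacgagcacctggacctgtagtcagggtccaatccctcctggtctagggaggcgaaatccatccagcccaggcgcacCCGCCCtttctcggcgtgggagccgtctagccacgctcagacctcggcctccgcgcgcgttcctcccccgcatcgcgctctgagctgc
VEGFB: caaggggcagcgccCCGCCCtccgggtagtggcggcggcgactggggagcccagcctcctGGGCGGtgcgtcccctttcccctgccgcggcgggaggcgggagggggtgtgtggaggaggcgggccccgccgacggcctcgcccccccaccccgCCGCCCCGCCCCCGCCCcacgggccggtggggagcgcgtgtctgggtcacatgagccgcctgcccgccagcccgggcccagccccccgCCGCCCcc
VEGFC: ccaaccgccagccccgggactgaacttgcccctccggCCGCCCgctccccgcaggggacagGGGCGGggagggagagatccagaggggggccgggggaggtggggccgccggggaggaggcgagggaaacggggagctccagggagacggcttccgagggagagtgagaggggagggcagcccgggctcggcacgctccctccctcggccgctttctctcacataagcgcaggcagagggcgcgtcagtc
GC boxes were found 1, 6 and 2 times in these PDGFA, VEGFB and VEGFC windows, overlapping matches included. The window shown for PDGFA has the fewest, and its other 3 windows held 4, 3 and 5. VEGFC, with no count in any library, thus has a window with this motif like the expressed ligands PDGFA and VEGFB. All 10 member windows held at least 1, as did 42.6% of the 35116 windows of the table. ACGTG or its reverse complement CACGT is 1 form of the core of the element bound by hypoxia-inducible factors. This form was found in 0 of the 10 windows and in 18.5% of all windows. The other form, GCGTG or its reverse complement CACGC, was not counted. It stands in each window shown above, so a lack of the element cannot be read from the 0. A match is a description of letters and not a measured binding site.

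NRP1, a co-receptor for VEGFA and semaphorin 3A, lies on chromosome 10 from 33177493 to 33334667. It had 79, 69.9 and 116 CPM in resistant replicates 1 to 3 and 71, 58.6 and 51.6 CPM in control replicates 1 to 3. Resistant replicate 2 lay just below control replicate 1, of the other batch. The test did not call it (log2 fold change 0.56 ± 0.20 SE, edgeR adjusted p = 0.123), and its 95% interval was 0.09 to 1.02. It was 0.16 in 2020 and 0.71 in 2021. NRP2, which also binds VEGFC and semaphorin 3F, was at 7, 4.14 and 10.5 CPM in resistant replicates 1 to 3 and at 5.34, 11.5 and 4.57 CPM in control replicates 1 to 3. The groups were fully mixed (log2 fold change 0.04 ± 0.41 SE, edgeR adjusted p = 0.967). The 95% interval of -0.91 to 0.98 corresponds to 0.534 to 1.97 times the control level.

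The order of the members was read from CPM per kilobase of the longest coding transcript. In resistant cells PDGFC was first at 31.4 ± 3.3, followed by VEGFA at 16.9 ± 8.61, NRP1 at 15 ± 4.18, VEGFB at 11.4 ± 0.713, PDGFA at 9.26 ± 1.77 and PDGFB at 6.41 ± 0.388 (SD, n = 3). In control cells VEGFA was first at 34.3 ± 20.8, followed by PDGFC at 18.9 ± 2.4, VEGFB at 16.2 ± 3.59, NRP1 at 10.3 ± 1.67, PDGFB at 6.59 ± 0.108 and PDGFA at 6.07 ± 1.7. NRP2 at 1.08 ± 0.476 in resistant and 1.07 ± 0.569 in control cells and PGF at 0.177 ± 0.0506 in resistant and 0.0799 ± 0.0371 in control cells followed in both lines. VEGFA overlapped NRP1, VEGFB and PDGFA in the resistant libraries and PDGFC and VEGFB in the control libraries, so these genes do not differ beyond their spread. NRP1 and VEGFB also overlapped in resistant libraries, and PDGFC and VEGFB, and PDGFB and PDGFA, in control libraries. These are overlaps of ranges over both batches. Within each control library PDGFC was above VEGFB, at 16.19, 19.52 and 20.84 against 12.17, 19.04 and 17.42 in replicates 1 to 3. PDGFC was above all other members in every resistant library. These ranks depend on the length used, as given in the closing section.

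The tested genes next to each called member on its chromosome were examined as well. VEGFA stood among genes that were lower: of the 5 nearest tested genes on each side, from 43522334 to 44234142 on chromosome 6, all 10 had values below 0 and 9 were called lower. Over all tested genes 5.33% were called lower. The median log2 difference of the 10 neighbours was -0.82, beside 0.00 over all tested genes and -0.97 for VEGFA itself. POLH, a translesion DNA polymerase, fell to 26.7 CPM in resistant cells, against 48.3 CPM in control cells (log2 fold change -0.86, edgeR adjusted p = 0.00227). MAD2L1BP, which acts in mitotic checkpoint silencing, was at -0.91 (adjusted p = 0.00354), and TMEM63B, an ion channel gene, at -0.90 (adjusted p = 0.00315). The other called neighbours were XPO5, GTPBP2, MRPS18A, LINC03040, MRPL14 and SLC29A1, with values of -1.67 to -0.47. The calls of GTPBP2 and SLC29A1 each ended in 10 of 16 alternatives, the replicate block among them (adjusted p = 0.0915 and 0.0542), and that of XPO5 ended without resistant replicate 3 (0.051). Those of XPO5, MRPS18A, LINC03040, MRPL14 and TMEM63B ended without the batch term (0.0507 to 0.0801). The part of the region in the VEGFA difference was not tested.

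PDGFC had 10 such neighbours on chromosome 4, from 154604136 to 158709623, of which 3 were called higher and none lower. Over all tested genes 6.17% were called higher and 5.33% lower. The median log2 difference of the PDGFC neighbours was 0.43, and 2 of 10 were below 0. GUCY1B1, a subunit of soluble guanylate cyclase next to PDGFC, was at 0.85 (edgeR adjusted p = 0.00509). Its partner subunit GUCY1A1 was at 0.48 (adjusted p = 0.0301) and GLRB, a glycine receptor subunit on the other side, at 0.51 (adjusted p = 0.029). GUCY1A1 and GLRB each lost the call without resistant replicate 1, 2 or 3 or control replicate 1 (adjusted p = 0.066 to 0.143). Without the batch term GUCY1B1, GUCY1A1 and GLRB were not called (0.117 to 0.244). PDGFA lies near the end of chromosome 7 and had 7 neighbours, of which FAM20C alone was called, higher by 0.44 (adjusted p = 0.0309). The call of FAM20C ended without each library except control replicate 2 (adjusted p = 0.0712 to 0.156). The median of these 7 was 0.07, while PDGFA itself was at 0.63.

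**Figure D3:**
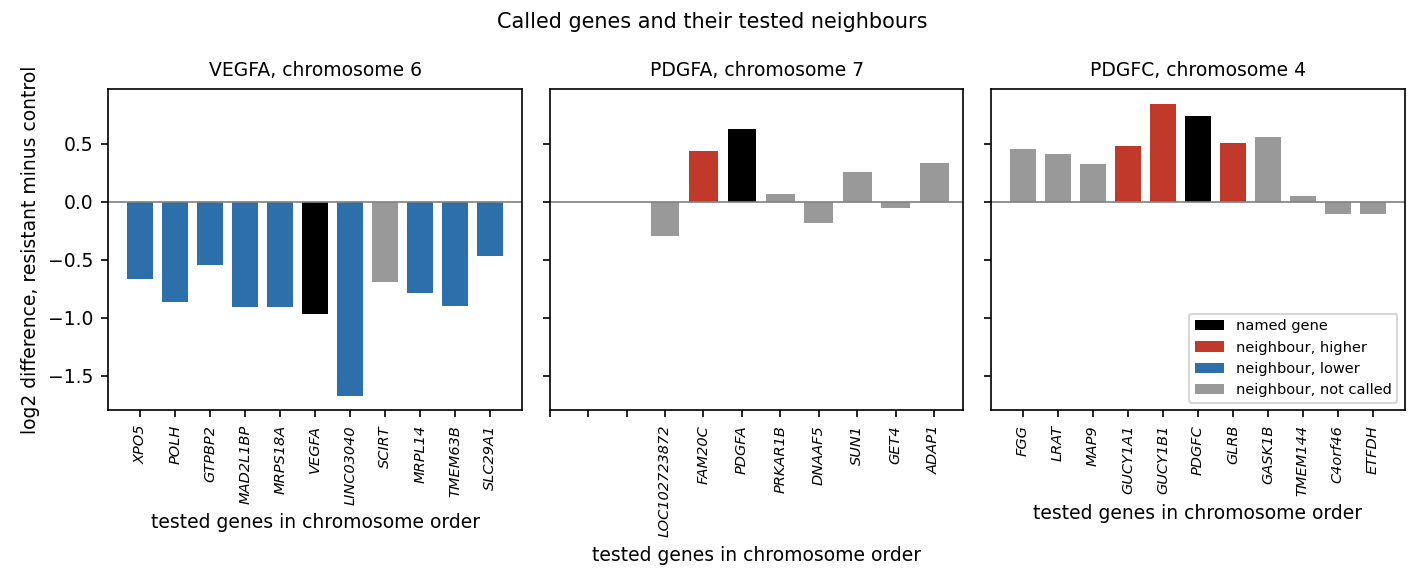
Log2 difference of resistant minus control for VEGFA, PDGFA and PDGFC (black) and up to 5 tested genes on each side in chromosome order (red higher, blue lower, grey not called). All 10 neighbours of VEGFA lie below 0, the 5 nearest neighbours to the left of PDGFC lie above 0, and those of PDGFA scatter around 0.

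The genes with the most similar pattern over the 6 libraries were sought among genes with a mean of at least 5 CPM. For VEGFA they were IER5 (Pearson r = 0.99), SERINC1 (0.99) and RHOB (0.98). For PDGFA they were MTFR1L, SLCO4A1 and FADS3 (each 0.99), and for PDGFC UNC13A (0.99), HOXC6 (0.99) and IGF2BP2 (0.98). With 6 libraries that share 2 batches and 10516 genes compared, values this high describe these libraries only.

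VEGFA is a textbook target of hypoxia-inducible factors, so it was set beside 18 other genes induced by low oxygen. Of these, 1 rose, none fell and 17 did not pass, and the median log2 difference was 0.08. The gene that rose was ENO2, a glycolytic enolase, which had 11.3, 10.2 and 8.2 CPM in resistant replicates 1 to 3 and 5.91, 5.02 and 4.19 CPM in control replicates 1 to 3 (log2 fold change 0.98 ± 0.15 SE, edgeR adjusted p = 0.00664). VEGFA and ENO2 thus moved in opposite directions between the lines, though the ENO2 call ended without the batch term (adjusted p = 0.0555). Between libraries of a line, however, several of these genes were low where VEGFA was low. CA9, the surface carbonic anhydrase, had 10.2, 17 and 2.6 CPM in resistant replicates 1 to 3 and 17.9, 8.67 and 13.5 CPM in control replicates 1 to 3. NDRG1 had 87.4, 96.8 and 14.8 CPM in resistant and 87.2, 25 and 54.8 CPM in control replicates 1 to 3. Over the 6 libraries the Pearson r with VEGFA was 0.772 for CA9 and 0.705 for NDRG1. Among the 18 genes it ran from -0.713 to 0.916, so the list did not follow VEGFA as a whole. Resistant replicate 3 was below the 6-library mean in 14 of the 18 genes and control replicate 2 in 13, and these were also the lowest libraries of their line for VEGFA. Control replicate 3 was below it in 13 of the 18 as well, while VEGFA was above its own mean there. Resistant replicate 2 went the other way, with 1 of the 18 below and VEGFA below its mean. The part of this variation in the VEGFA difference was not tested.

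**Figure D4:**
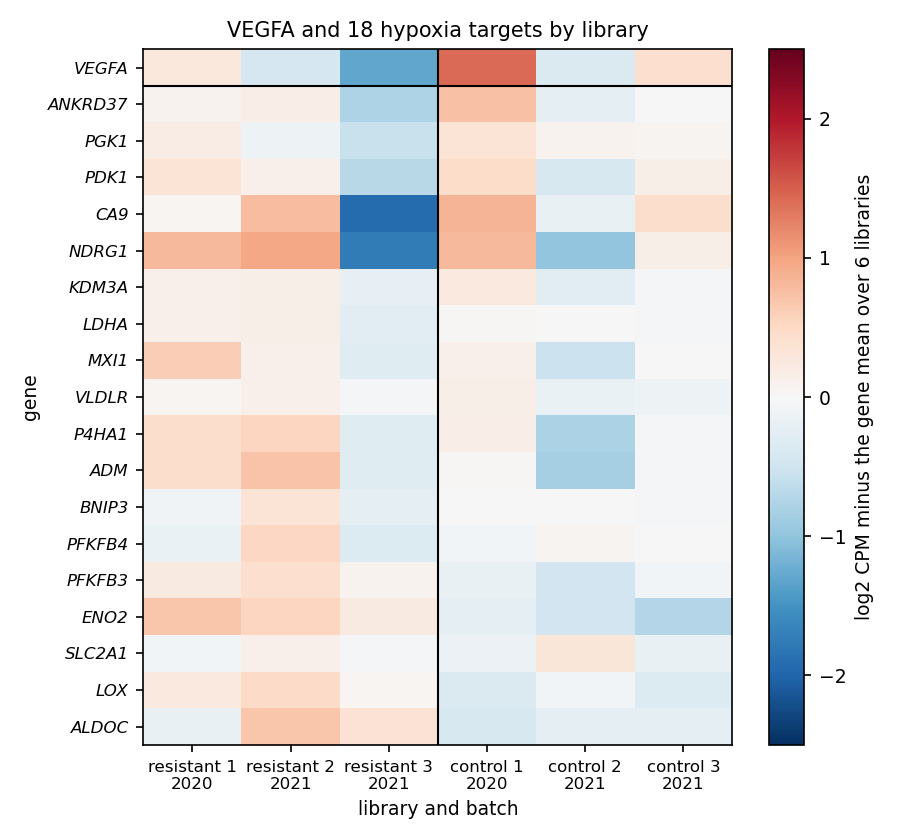
Log2 CPM of VEGFA and 18 hypoxia targets in each library, minus the mean of the gene over the 6 libraries (red above, blue below), with targets ordered by their correlation with VEGFA. Resistant replicate 3 is the lowest library for VEGFA, CA9 and NDRG1.

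Among 14 genes known to regulate VEGF and PDGF genes or hypoxia-inducible factors, 12 were tested, of which 1 rose and 1 fell, with a median log2 difference of -0.09. ETS1, a transcription factor with many targets in vessel growth, had 86.6, 75.7 and 88.1 CPM in resistant replicates 1 to 3 and 36.1, 36.9 and 35.4 CPM in control replicates 1 to 3 (log2 fold change 1.21 ± 0.10 SE, edgeR adjusted p = 0.00109). EGLN1, the oxygen-sensing prolyl hydroxylase that marks hypoxia-inducible factors for decay, had 52.7, 51.5 and 52.7 CPM in resistant and 82, 80.1 and 73 CPM in control replicates 1 to 3. This was a 1.5-fold fall (log2 fold change -0.58 ± 0.09 SE, adjusted p = 0.00587), and both calls were kept in all 16 alternatives. HIF1A and EPAS1, the oxygen-regulated subunits, were at -0.16 and 0.09 and did not pass (adjusted p = 0.437 and 0.764).

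Receptors for these ligands were mostly low in the tumour cells. Of 6 receptor genes, counting the receptor-like PDGFRL, 4 were tested, 2 rose and none fell, with a median log2 difference of 1.22. FLT1, the receptor of VEGFA, VEGFB and PGF, had 0.512, 1.27 and 0.914 CPM in resistant replicates 1 to 3 and 0.224, 0.268 and 0.236 CPM in control replicates 1 to 3 (log2 fold change 1.87 ± 0.34 SE, edgeR adjusted p = 0.012). The FLT1 call ended without resistant replicate 2 (adjusted p = 0.0501) and without the batch term (0.0579). PDGFRL, a secreted protein resembling a PDGF receptor, rose to 1.48 ± 0.392 CPM in resistant cells, against 0.632 ± 0.0842 CPM in control cells (SD, n = 3 each, adjusted p = 0.0181). PDGFRL lost its call without any resistant replicate or control replicate 1 (adjusted p = 0.0537 to 0.0837). It was also lost in the 2021 batch alone (0.0528) and without the batch term (0.0891). KDR, the main signalling receptor of VEGFA, was the most abundant and the most variable, at 39.4, 63.8 and 12.9 CPM in resistant and 19.9, 6.15 and 23.6 CPM in control replicates 1 to 3. Its groups overlapped and it was not called (log2 fold change 1.23 ± 0.61 SE, adjusted p = 0.243). The value rests on single libraries: it was 0.31 without resistant replicate 2, 0.81 without control replicate 2 and 1.87 without control replicate 3. PDGFRA, which binds PDGFA and PDGFC, ranged from 0.862 to 2.355 CPM in resistant and from 0.518 to 1.61 CPM in control libraries. Its groups overlapped and it was not called (log2 fold change 0.55 ± 0.49 SE, edgeR adjusted p = 0.518). PDGFRB had at most 11 counts and FLT4 at most 13 in a library, too few to test. FLT1, KDR and PDGFRA are named because they are receptors of these ligands and were picked after their values were seen.

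Of 7 class 3 semaphorins, the other ligands of neuropilins, 6 were tested, of which 2 rose and none fell, with a median of 0.20. SEMA3C had 194, 128 and 162 CPM in resistant replicates 1 to 3 and 108, 66.2 and 65.3 CPM in control replicates 1 to 3 (log2 fold change 1.04 ± 0.12 SE, edgeR adjusted p = 0.00318). SEMA3A, which competes with VEGFA for NRP1, had 20.7, 21.8 and 30 CPM in resistant and 7.68, 10.3 and 15.9 CPM in control replicates 1 to 3 (log2 fold change 1.12 ± 0.20 SE, adjusted p = 0.0117). Both genes separated the lines without overlap. The SEMA3A call ended without resistant replicate 1 or 3 or control replicate 1 (adjusted p = 0.0522 to 0.0767). It also ended in the 2021 batch alone (0.0529) and without the batch term (0.0969). That of SEMA3C ended only without the batch term (0.0752). Of 10 plexins and other neuropilin partners 1 rose and none fell, with a median of 0.00. That gene was NRCAM, a cell adhesion molecule of the L1 family, at 2.07 ± 0.35 CPM in resistant and 0.275 ± 0.0371 CPM in control cells (SD, n = 3 each, adjusted p = 0.00181). PLXNB2, the most abundant plexin of the list by CPM, was at -0.04 (adjusted p = 0.88).

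Of 14 genes that process or release the ligands 10 were tested, of which 3 rose and none fell, with a median of 0.28. HPSE, the heparanase that frees ligands from heparan sulphate, had 12.7, 9.87 and 10.2 CPM in resistant replicates 1 to 3 and 5.82, 6.56 and 6.22 CPM in control replicates 1 to 3 (log2 fold change 0.80 ± 0.14 SE, edgeR adjusted p = 0.0111). PLAT, the plasminogen activator that removes the CUB domain of PDGFC, rose to 1.52 ± 0.363 CPM in resistant cells, against 0.765 ± 0.241 CPM in control cells (SD, n = 3 each, adjusted p = 0.0364). ADAMTS14, a protease of the family that matures VEGFC, was the remaining gene (adjusted p = 0.0348). HPSE lost its call without 3 libraries, PLAT without 5 and ADAMTS14 without any of the 6 (adjusted p up to 0.142), and under the replicate block PLAT had 0.0709 and ADAMTS14 0.0595. Of 13 heparan sulphate proteoglycans, which hold VEGF and PDGF in the matrix, 10 were tested, with 1 higher, 1 lower and a median of 0.31. HSPG2, the basement membrane proteoglycan perlecan, had 130, 202 and 252 CPM in resistant and 60, 80.7 and 71 CPM in control replicates 1 to 3 (log2 fold change 1.43 ± 0.14 SE, adjusted p = 0.00205). SDC1, the epithelial syndecan, had 202, 204 and 199 CPM in resistant and 296, 320 and 292 CPM in control replicates 1 to 3 (log2 fold change -0.59 ± 0.10 SE, adjusted p = 0.0093). The SDC1 call ended without resistant replicate 1 or 3 (adjusted p = 0.054 and 0.051) and in the 2021 batch alone (0.0506).

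Other angiogenic factors gave 1 rise and 1 fall among 9 tested of 17 listed, with a median of 0.41. MDK, the heparin-binding growth factor midkine, fell to 231 ± 7.99 CPM in resistant cells, against 328 ± 8.45 CPM in control cells (SD, n = 3 each, edgeR adjusted p = 0.0156). EFNB2, the ligand ephrin-B2 of arterial endothelium, rose 1.67-fold (adjusted p = 0.0309). MDK lost its call without any resistant replicate or control replicate 1 (adjusted p up to 0.0955), and EFNB2 without 4 libraries (up to 0.113) and under the replicate block (0.0617). MDK and EFNB2 also lost it in the 2021 batch alone (0.0675 and 0.0846) and without the batch term (0.0651 and 0.11). Of 12 angiogenesis inhibitors 7 were tested, 2 rose and none fell, with a median of 0.27. TIMP3, a metalloprotease inhibitor that also blocks KDR, rose 1.74-fold to 25.3 ± 7.46 CPM in resistant cells, against 14.8 ± 5.33 CPM in control cells (SD, n = 3 each, adjusted p = 0.00372). The groups of TIMP3 overlapped, and its call ended only without the batch term (0.315). COL4A3, whose collagen chain contains the fragment tumstatin, rose 1.69-fold (adjusted p = 0.0164), a call that ended without any resistant replicate or control replicate 1 (up to 0.101). Over these 9 lists the share called can be set against the background of 11.5%, and with 4 to 18 tested genes a list no share is called particular to a list.

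**Figure D5:**
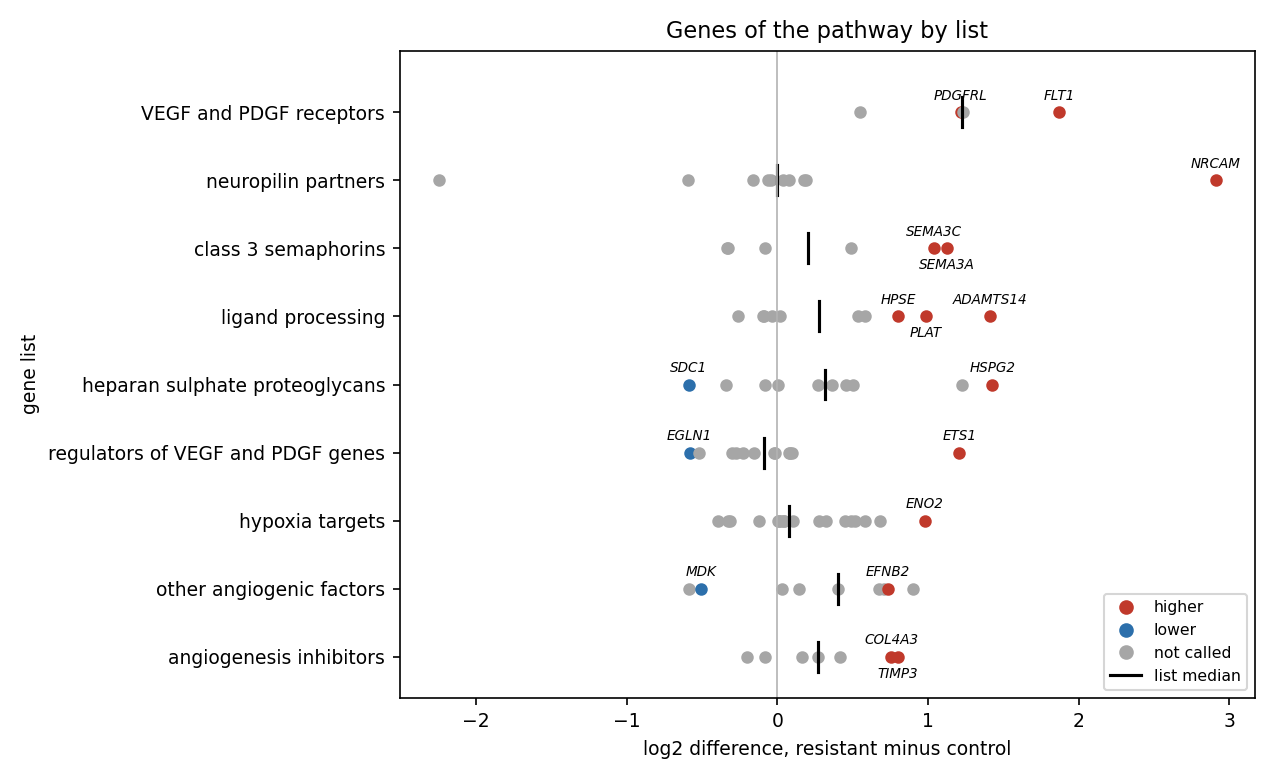
Log2 difference of resistant minus control for each tested gene of 9 lists of the pathway (red higher, blue lower, grey not called, with called genes named). Black lines are list medians; NRCAM and FLT1 lie farthest to the right at 2.91 and 1.87, and EGLN1, SDC1 and MDK are the genes called lower.

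Whether the difference between the lines itself differed between batches was asked with a line by batch term. No gene of 13950 passed in edgeR (0% called, 180 at an unadjusted p under 0.05), and DESeq2 called 2 genes, none of them a member. No member had an unadjusted p under 0.05 in edgeR. The largest member values were 0.60 for NRP1, -0.52 for NRP2 and -0.51 for VEGFB on the log2 scale. With 2 residual degrees of freedom this test can miss sizeable differences.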

How the data were processed

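RNA of 6 samples was measured, 3 of the resistant and 3 of the parental line. Per the labels' protocols, a KAPA kit turned 100 ng of RNA into libraries that were captured with exome probes, so levels per kilobase may also reflect probe coverage. The deposited file holds raw counts per Entrez gene, 1 column a library, matched to samples by the library names in the labels. The submitters' processing notes name Trimmomatic 0.38, STAR 2.7.8a, featureCounts of Subread and GRCh38. For annotation, strand and multi-mapping reads, the settings were not given in the sources used here.

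Names and positions came from the RefSeq table of GRCh38.p14, which named 27745 of 28395 IDs. Lengths came from GENCODE 29. Genes were filtered with filterByExpr by group, scaled by TMM and tested with edgeR 4.0.16 in R 4.3.3 with default glmQLFit settings, which leaves 3 residual degrees of freedom. CPM use TMM-scaled library sizes, log2 CPM a prior count of 2, and SE are derived from the F statistic. Intervals are unadjusted. The steps were tested on simulated data. The members, lists and tests were chosen with earlier results of these data known. Genes named from a list are its largest changes among called genes with a mean of 1 CPM or more, at most 2 in each direction, or its most abundant gene where none was called. FLT1, KDR, FLT4, PDGFRA, PDGFRB, PLXNB2, ADAMTS14, HIF1A, EPAS1, CA9, NDRG1, EPCAM, PGR, ESR1, PECAM1, CDH5, VWF, TEK and the markers given at or near 0 fall outside that rule and were chosen after their values were seen.

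Within a group, libraries were more different than counting error gives (chi-square divided by its degrees of freedom, 70 to 215), and each counts as 1 sample. Nothing in the labels tells separate cultures from technical repeats, and the p-values rest on the spread of these libraries. Deviations of libraries with the same replicate number correlated across genes at 0.729, 0.143 and 0.155, so a fit blocked on that number was run too. Crossed numbers within 2021 correlated more, at 0.57 and 0.477. Alternatives were DESeq2 1.42.0, limma 3.58.1 voom, other scalings and filters, no batch term, the block, only the 2021 libraries, and omission of each library in turn. A robust spread estimate and another gene length were added after the data were examined.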

Additional observations from a re-analysis of the deposited data

How the results depend on the processing

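PDGFC kept its call in all 16 alternatives (log2 0.67 to 0.83), PDGFA in 11 (0.54 to 0.71) and VEGFA in 6 (-1.29 to -0.76), and none of these 3 changed sign. Against 1604 genes called in the reported analysis, 2579 were called with no filter, 354 without the batch term, 907 in the 2021 batch alone, and 625 to 1717 with a library left out, the fewest without resistant replicate 3. Members called higher were 1 (PDGFC) without the batch term and in the 2021 batch alone, and 1 to 2 with a library left out. Members called lower were 0 with upper quartile scaling, a minimum mean of 1 CPM, no batch term or the replicate block, 2 (VEGFA and VEGFB) with no filter, DESeq2 or limma voom, and 0 to 1 with a library left out. VEGFB was called lower in place of VEGFA in the 2021 batch alone (adjusted p = 0.0424 for VEGFB and 0.153 for VEGFA), without resistant replicate 1 (0.0449 and 0.155), without control replicate 1 (0.0375 and 0.141) and with a robust estimate of the spread (0.0499 and 0.0965). With no filter NRP1 was called higher (adjusted p = 0.00398). The replicate block ended the VEGFA call and no other member's call. Of the called genes named above, only PDGFC, NRCAM, HSPG2, SDC1, EGLN1, ETS1, POLH, MAD2L1BP and UNC13A kept the call without the batch term. In the 2021 batch alone, the calls of ESAM, SEMA3A, PDGFRL, HPSE, PLAT, ADAMTS14, SDC1, EFNB2, MDK and COL4A3 ended (edgeR adjusted p = 0.0506 to 0.14). Those of GTPBP2, SLC29A1, FAM20C, GUCY1A1 and GLRB ended there as well (0.0875 to 0.176).

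In the 2021 batch alone, the log2 difference of PDGFB was 5e-04 and that of NRP2 was -0.1303. With a library left out they spanned -0.0768 to 5e-04 for PDGFB and -0.3794 to 0.559 for NRP2. The line by batch term called 17 genes with no filter and 0 to 1 with a library left out, and then spanned -0.2474 to 0.6874 for VEGFA, -0.3531 to 1.0241 for PGF and -1.3641 to 0.2982 for NRP2. By the mean over both lines, coding length ranked PDGFC 1, VEGFA 2, PDGFB 3, VEGFB 4 and NRP1 6, and all exons joined ranked PDGFC 1, VEGFB 2, NRP1 3, VEGFA 4, PDGFB 5 and PDGFA 6, against VEGFA 1, PDGFC 2, VEGFB 3, NRP1 4, PDGFA 5 and PDGFB 6 by the longest coding transcript. Within lines, PDGFC was rank 1 in resistant and 2 in control cells by all 3 lengths. VEGFA was rank 2 in resistant and 1 in control cells by coding length, as by the transcript, but 6 in resistant and 3 in control cells with all exons joined. VEGFB was rank 6 in resistant and 3 in control cells by coding length, and 2 in resistant and 1 in control cells with all exons joined. The causes were not tested. At this depth PGF, PDGFD and VEGFC were too low for small differences to be detected.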
